A study of Mus musculus with 8 samples.

Results

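Acod1, Nos2, Gch1, Arg1, Arg2, Ido1, Kmo, Kynu and Il4i1 encode enzymes by which macrophages make itaconate and nitric oxide and break down arginine, tryptophan and other amino acids. These 9 genes were chosen by name, and all 9 were among the 24786 gene symbols counted in each of 8 libraries of polyadenylated RNA from mouse liver macrophages. The libraries came from Kupffer cells, the macrophages that reside in liver, and from monocyte-derived macrophages (MoM), with 2 libraries from wild-type C57BL/6 mice (WT) and 2 from dnTGFβRII mice (TG) for each cell type. The transgene of the TG mice, also C57BL/6 and used to model cholangitis, encodes a dominant-negative form of TGF-β receptor II and is known to be driven by a Cd4 promoter, which acts in T cells. The labels used here do not give ages or sexes, the sorting gates, or whether replicate libraries came from separate animals. The p-values therefore measure the spread between these libraries, which may be technical.

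Activated macrophages use a small group of enzymes to turn central metabolites into effector molecules. Acod1 makes itaconate from the Krebs cycle intermediate cis-aconitate. Nos2 makes nitric oxide from arginine with the cofactor tetrahydrobiopterin, whose synthesis begins with Gch1, while the arginases Arg1 (cytosolic) and Arg2 (mitochondrial) split the same arginine into ornithine and urea. Ido1 opens the kynurenine pathway of tryptophan breakdown, Kmo and Kynu act on kynurenine and its hydroxylated product, and Il4i1 is a secreted amino acid oxidase. In liver, hepatocytes are the main site of Arg1 and of much of the kynurenine pathway.

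The libraries held 26190194 to 30308132 counts, so that 1 count stood for 0.0330 to 0.0382 CPM (counts scaled to a common library total). Levels below are CPM scaled by the trimmed mean of M-values (TMM), and log2 fold changes are given ± SE from edgeR's quasi-likelihood fit of all 8 libraries. A gene was called at a Benjamini-Hochberg adjusted p below 0.05 over the 15254 genes tested. Libraries of the same group differed in markers of other cells. The summed level of 9 Kupffer cell markers was 28056 to 28897 CPM in 3 Kupffer libraries but 14318 CPM in TG Kupffer replicate 2, and it was 464 to 950 CPM in 3 MoM libraries but 8923 CPM in WT MoM replicate 1. These libraries also had the highest sums of 10 sinusoidal endothelial markers, 9100 and 5840 CPM, against 561 to 2400 CPM elsewhere. The sum of 10 neutrophil markers was 3701 CPM in TG MoM replicate 2 and at most 552 CPM in the others. Each result was therefore also computed without TG Kupffer replicate 2 and WT MoM replicate 1. Leaving out a library leaves 1 in its group, and the spread is then taken from the other groups.

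**Figure D1:**
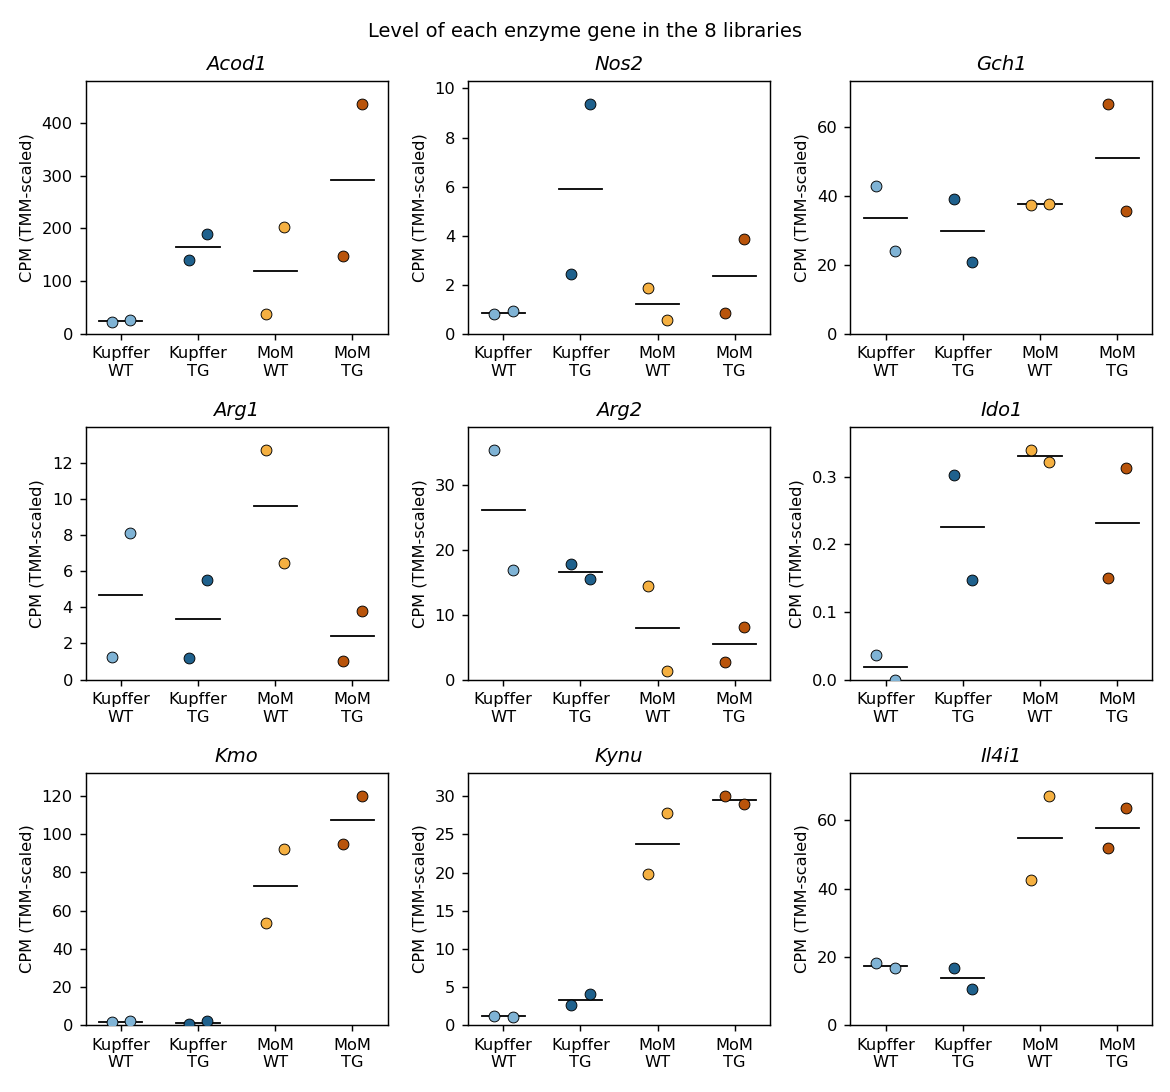
TMM-scaled CPM (vertical axes, each starting at 0 with its own range) of the 9 genes in the 4 groups (horizontal axes), with 1 point per library, replicate 1 on the left and replicate 2 on the right, and a line at the mean of each pair. Kmo, Kynu and Il4i1 are higher in all 4 MoM libraries than in any Kupffer library, and Acod1 is lowest in the WT Kupffer libraries.

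Kmo and Kynu, which act on kynurenine and its hydroxylated product, stood far higher in MoM than in Kupffer cells in both genotypes. Kmo, kynurenine 3-monooxygenase (chromosome 1, 175620381 to 175662116, GRCm38), had 1.69 and 2.20 CPM in WT Kupffer cells and 0.567 and 2.36 CPM in TG Kupffer cells. It had 53.5 and 91.9 CPM in WT MoM and 94.6 and 120 CPM in TG MoM. All MoM libraries lay above all Kupffer libraries. Averaged over the genotypes, Kmo rose by 5.71 ± 0.51 on the log2 scale, or 52.2-fold (adjusted p = 0.00454). It was also called within WT (log2 fold change 5.22 ± 0.71, adjusted p = 0.0369) and within TG (6.19 ± 0.74, adjusted p = 0.0277).

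Kynu, kynureninase (chromosome 2, 43555329 to 43682715), cleaves kynurenine and 3-hydroxykynurenine to anthranilic acids. It had 1.22 and 1.12 CPM in WT Kupffer cells, 2.68 and 4.09 CPM in TG Kupffer cells, 19.8 and 27.8 CPM in WT MoM and 30.1 and 29.0 CPM in TG MoM. No Kupffer library came near any MoM library. Averaged over the genotypes Kynu rose 13.3-fold (log2 fold change 3.73 ± 0.24, adjusted p = 0.00347), and it was called within WT (4.34 ± 0.35, adjusted p = 0.0260) and within TG (3.12 ± 0.33, adjusted p = 0.0248). In WT its p ranked 5 among the 15254 genes.

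Il4i1, the interleukin 4-induced amino acid oxidase (chromosome 7, 44816387 to 44840809), had a smaller step from a higher base. Its level was 18.2 and 16.7 CPM in WT Kupffer cells and 16.8 and 10.7 CPM in TG Kupffer cells, against 42.5 and 67.2 CPM in WT MoM and 51.8 and 63.6 CPM in TG MoM. The subsets did not overlap, and Il4i1 rose 3.63-fold over both genotypes (log2 fold change 1.86 ± 0.23, adjusted p = 0.0100). It was called within TG (2.07 ± 0.33, adjusted p = 0.0433) but not within WT (1.65 ± 0.33, adjusted p = 0.0730). Within TG, adding the replicate number as a block gave an adjusted p of 0.0576.

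The counts of Il4i1 are not independent of its neighbours. Gm21948, which RefSeq lists as Il4i1b, a gene that spans the same locus (chromosome 7, 44816370 to 44840804), carried 1.01 to 1.13 times the count of Il4i1 in every library. Reads of these genes cannot be told apart here. On the other strand, exons of Tbc1d17 overlap 83.9% of the exon bases of Il4i1 in GENCODE M21, and the strand setting of the counts is not given in the sources used here. Tbc1d17 itself had 35.3 to 54.5 CPM in Kupffer cells and 23.2 to 41.8 CPM in MoM, with a log2 fold change over both genotypes of -0.54 ± 0.18 (adjusted p = 0.0843).

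Within a single genotype the calls of these genes changed when single libraries were left out, while every log2 fold change stayed above 0. For Kmo in TG it was 7.44 without TG Kupffer replicate 2 and 5.47 without TG Kupffer replicate 1, and over both genotypes it was 6.31 without the former. Kmo and Kynu lost their calls within TG when TG Kupffer replicate 1, either WT Kupffer library or either TG MoM library was left out (adjusted p = 0.0805 to 0.138), as did Il4i1 when TG Kupffer replicate 2 or any of those 5 was (0.0550 to 0.197). Within WT, Kmo and Kynu lost theirs without either WT Kupffer library, either TG MoM library or WT MoM replicate 2 (adjusted p = 0.0834 to 0.358). Over both genotypes Kynu was called whichever library was left out (log2 fold change 3.56 to 3.84). Kmo missed the threshold without WT Kupffer replicate 2 (adjusted p = 0.0509), and Il4i1 missed it without WT Kupffer replicate 1 or 2 (0.0713 and 0.0733). Without both TG Kupffer replicate 2 and WT MoM replicate 1, all of these log2 fold changes stayed above 0. The only WT MoM library left was then replicate 2, the MoM library with the most Il4i1 (67.2 CPM).

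Of the 9 genes, 2 were called between WT subsets, both higher in MoM, where 1.17% of all tested genes were called, 1.11% higher and 0.059% lower. DESeq2 called 4, with 19.7% of all genes. Leaving out Ido1, which passed the filter through the WT MoM libraries, 4 of 8 lay higher in both WT MoM libraries than in both WT Kupffer libraries, as 38.5% of all genes did, and Arg2 lay lower, as 29.7% did. Within TG, 3 of 9 were called by either tool, all higher. EdgeR called 2.5% of all genes there, 1.84% higher and 0.656% lower, and DESeq2 18.1%. In TG, 3 of 9 lay higher without overlap (29.1% of all genes) and 1 lower (23.8%). Averaged over the genotypes, 3 of 9 were called higher and none lower, where 18.7% of all genes were called, 10.6% higher and 8.05% lower. DESeq2 called 5 of 9, and 30% of all genes. All 4 MoM libraries lay above all 4 Kupffer libraries for 3 of 9 genes, as for 14.8% of all. The median log2 fold change of the 9 genes in that comparison was 1.57, and 0.09 over all tested genes. These 9 include Ido1 (1.97), and without it the median lay between the values of Gch1 (0.47) and Acod1 (1.57). In bulk samples, fewer cells of a type and less RNA per cell cannot be told apart.

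**Figure D2:**
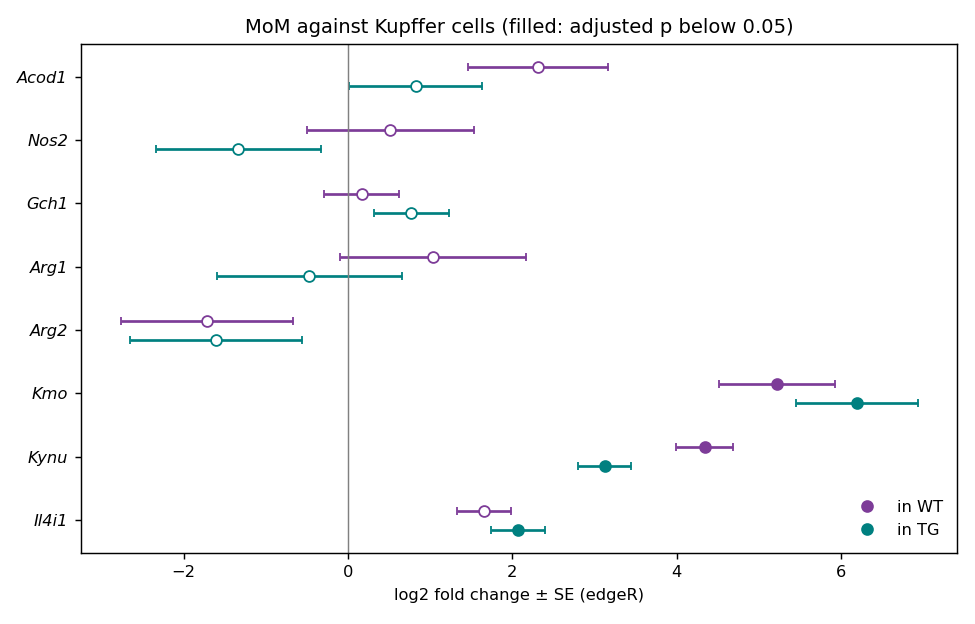
Log2 fold change ± SE of MoM against Kupffer cells (horizontal axis) for 8 genes (vertical axis), in WT and in TG, from edgeR's fit of 8 libraries, with filled points at an adjusted p below 0.05. Kmo lies at 5.22 in WT and 6.19 in TG and Kynu at 4.34 and 3.12, while Arg2 lies to the left of 0 in both, at -1.72 and -1.61.

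Dendritic cell markers moved with Kmo, Kynu and Il4i1. Their summed level over 9 genes was 63.1 to 303 CPM in Kupffer libraries and 1524 to 2434 CPM in MoM libraries. Of these 9 markers 5 were called higher in MoM over both genotypes, as were 8 of 10 monocyte markers. Markers of other cells moved the same way, with 7 of 9 tested neutrophil markers, 5 of 7 B cell markers, 4 of 6 mast cell and basophil markers and 3 of 6 cholangiocyte markers called higher. The summed levels in Kupffer and MoM libraries were 2.15 to 35.5 and 57.9 to 3701 CPM for neutrophils, and 99.1 to 134 and 153 to 304 CPM for B cells. They were 1.65 to 127 and 43.2 to 307 CPM for mast cells and basophils, and 0.448 to 5.60 and 15.7 to 64.0 CPM for cholangiocytes. Of 8 T and NK cell markers 1 was called higher, and 7 of 9 Kupffer cell markers were called lower. Of 10 sinusoidal endothelial markers 0 were called higher and 1 lower. Over all genes 10.6% were called higher and 8.05% lower. Of 12 hepatocyte markers 1 was called, Ass1, which is also an arginine gene. As the called marker it is left out of the hepatocyte sums given here, a choice made after its values were seen. Cps1 and Otc, also on both lists, stay in these sums. The sum of the other 11 was 15.5 to 890 CPM in Kupffer libraries and 16.1 to 644 CPM in MoM. The part of other cells in these results was not tested. By likeness over the 8 libraries (Pearson's r of log2(CPM + 0.5), a description over libraries that fall into 2 subsets), Kmo was nearest to Ezh2 (0.996), Lmnb1 (0.992) and Map3k9 (0.992). Kynu was nearest to Napsa, a protease listed here among the monocyte markers (0.998), Bri3bp (0.996) and H2-Eb2 (0.996). Il4i1 was nearest to Gm21948 of its own locus (1.00), then Pid1 (0.996) and Tspoap1 (0.992).

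The rest of the kynurenine pathway did not move as a block. Ido1, the interferon-induced dioxygenase that opens it in immune cells (chromosome 8, 24584136 to 24597009), was barely detected. It had 1 and 0 counts in WT Kupffer cells, 8 and 4 in TG Kupffer cells, 11 and 10 in WT MoM and 4 and 9 in TG MoM. With 3 counts as the least that can be told from 0, Ido1 was at or under that floor in both WT Kupffer libraries. It passed the filter on low counts through the WT MoM libraries and was called in none of the 7 comparisons. The other entry enzymes Ido2 and Tdo2 reached at most 0.803 and 4.25 CPM. Tdo2, the hepatocyte enzyme, was highest in WT MoM replicates 1 and 2 and WT Kupffer replicate 2, at 3.62 to 4.25 CPM, and these libraries had hepatocyte marker sums of 482 to 644 CPM. TG Kupffer replicate 2, with a sum of 890 CPM, had 0.774 CPM.

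Downstream of Kynu, Haao, which converts 3-hydroxyanthranilic acid, stood at 0.359 and 2.95 CPM in WT Kupffer cells, 0.491 and 1.88 CPM in TG Kupffer cells, 22.1 and 30.2 CPM in WT MoM and 24.1 and 20.2 CPM in TG MoM. It rose over both genotypes (log2 fold change 4.10 ± 0.74, adjusted p = 0.0195), with no overlap between subsets. Qprt, the next enzyme toward NAD, fell by 1.98 ± 0.40 (adjusted p = 0.0249), from 3.50 to 10.2 CPM in Kupffer libraries to 1.29 to 2.78 CPM in MoM. Afmid, which acts between Ido1 and Kmo, had 25.8 to 38.6 CPM in Kupffer libraries and 11.7 to 30.1 CPM in MoM.

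**Figure D3:**
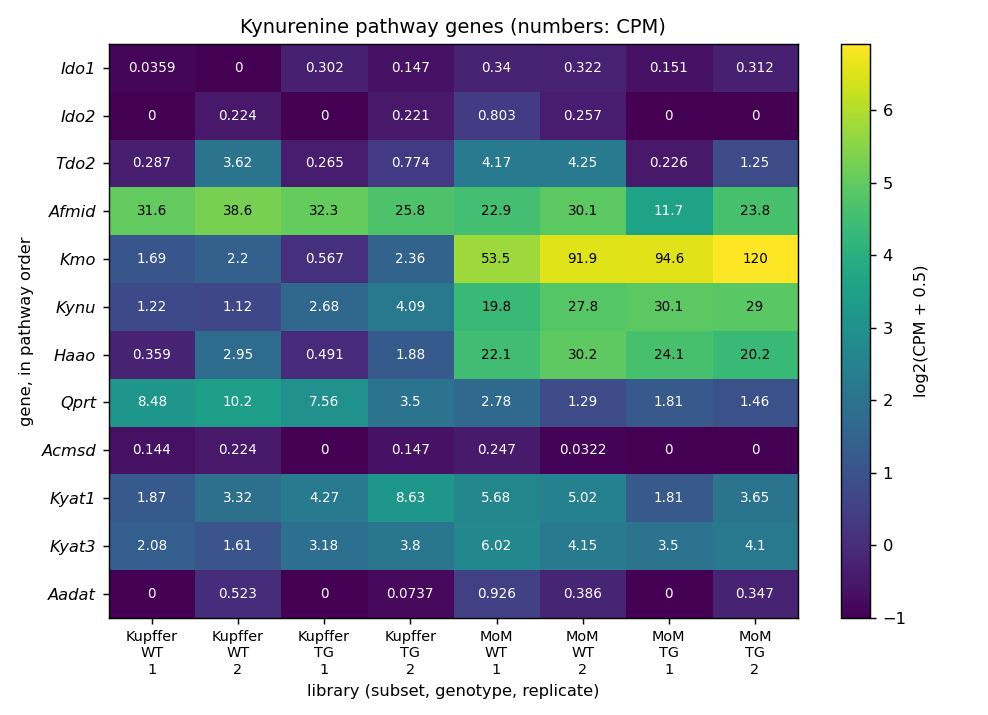
Heat map of kynurenine pathway genes (vertical axis, from entry enzymes at the top to side branches at the bottom) in the 8 libraries (horizontal axis), coloured by log2(CPM + 0.5) and printed with the CPM. Kmo, Kynu and Haao are bright in the 4 MoM columns, Ido1 stays at or below 0.340 CPM everywhere, and Qprt is brighter in the Kupffer columns.

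Transport and sensing genes of the tryptophan list also differed between subsets. Of its 19 genes, 17 were tested, and 4 rose and 3 fell in MoM over both genotypes, against 10.6% and 8.05% of all genes. Ahr, the receptor that binds kynurenine and other tryptophan products, had 9.45 to 46.7 CPM in Kupffer libraries and 127 to 234 CPM in MoM (log2 fold change 3.14 ± 0.53, adjusted p = 0.0170). Ahrr, the repressor of that receptor, fell by 1.67 ± 0.34 (adjusted p = 0.0249), from 3.28 to 8.14 CPM to 1.60 to 2.10 CPM. Carriers of large neutral amino acids differed in opposite directions. Slc7a5 rose by 1.98 ± 0.39 (adjusted p = 0.0230) and Slc7a8, which forms a similar carrier with the same partner chain, fell by 2.64 ± 0.35 (adjusted p = 0.0109), from 251 to 628 CPM in Kupffer libraries to 47.8 to 158 CPM in MoM. Slc7a8 was the single gene of the 4 pathway lists called within a genotype, in TG (-2.86 ± 0.50, adjusted p = 0.0476). Got2, a mitochondrial transaminase that can act on kynurenine, rose by 1.17 ± 0.19 (adjusted p = 0.0162). Kyat1 and Kyat3, transaminases that turn kynurenine into kynurenic acid, were not called, with log2 fold changes over both genotypes of -0.10 ± 0.40 (adjusted p = 0.880) and 0.79 ± 0.29 (adjusted p = 0.101). The Kyat1 values of the genotypes had opposite signs. Within TG it was -1.24 ± 0.57 (adjusted p = 0.237), with both MoM libraries below both Kupffer libraries. Within WT it was 1.04 ± 0.57 (adjusted p = 0.279), with both MoM libraries above both Kupffer libraries.

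Promoters of Kmo and Il4i1 are shown because both genes rose in MoM, and that of Acod1 because its TG and WT Kupffer libraries did not overlap. The sequence table taken from RefSeq gives a promoter (250 bases before to 50 after the start) for 4 of the 9 genes on GRCm38.p6, the others being named only. The starts of Kmo and Il4i1 in it lie inside the genes as GENCODE M21 draws them. Sequences read along the gene's strand, and capitals mark matches on either strand to GAGGAAGT, a form of the site of PU.1, a macrophage transcription factor, or to a loose form of the kappa B site (a run of G, a spacer and a run of C).
Kmo (chr1:175631943-175632242, plus strand): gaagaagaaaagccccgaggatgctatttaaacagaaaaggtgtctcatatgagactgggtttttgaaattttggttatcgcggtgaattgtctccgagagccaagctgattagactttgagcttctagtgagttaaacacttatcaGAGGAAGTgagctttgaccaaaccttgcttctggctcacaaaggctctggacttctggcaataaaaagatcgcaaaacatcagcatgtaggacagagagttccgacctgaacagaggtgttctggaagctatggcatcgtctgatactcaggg
Il4i1 (chr7:44836038-44836337, plus strand): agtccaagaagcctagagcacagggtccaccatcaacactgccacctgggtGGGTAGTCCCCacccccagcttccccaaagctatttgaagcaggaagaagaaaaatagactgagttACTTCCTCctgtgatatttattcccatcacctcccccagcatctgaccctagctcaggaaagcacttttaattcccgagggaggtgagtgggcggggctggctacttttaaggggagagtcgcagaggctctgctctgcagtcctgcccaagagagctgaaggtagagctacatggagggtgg
Acod1 (chr14:103046762-103047061, plus strand): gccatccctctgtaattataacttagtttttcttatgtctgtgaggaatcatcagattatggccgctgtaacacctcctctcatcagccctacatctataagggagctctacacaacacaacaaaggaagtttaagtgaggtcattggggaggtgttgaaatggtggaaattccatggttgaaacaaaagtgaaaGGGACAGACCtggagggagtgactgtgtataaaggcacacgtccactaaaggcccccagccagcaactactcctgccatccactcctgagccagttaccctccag
GAGGAAGT was found in the promoters of Kmo, 103 to 96 bases before the start, and of Il4i1, on the minus strand 133 to 126 bases before it, and in 3.20% of the 32851 promoters of that table. This motif was chosen after the sequences had been seen. The kappa B form was found in Il4i1, as overlapping matches, in Acod1 and in Gch1, but 50.8% of all promoters hold it. TTCNNNGAA, the gamma-activated site (8.30% of promoters), and the interferon-stimulated response element (3.44%), were found in none of the 4. A match is a description of letters and not evidence of binding.

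Arginase transcripts differed less clearly between the subsets. Arg2, the mitochondrial arginase (chromosome 12, 79130777 to 79156301), had 35.4 and 16.9 CPM in WT Kupffer cells and 17.8 and 15.4 CPM in TG Kupffer cells. In MoM it had 14.5 and 1.38 CPM in WT and 2.79 and 8.09 CPM in TG. Every MoM library lay below every Kupffer library, an order that 11.4% of all genes had. The log2 fold change over both genotypes was -1.67 ± 0.74 and did not pass the test (adjusted p = 0.161). The highest MoM value came from WT MoM replicate 1, the library with 8923 CPM of Kupffer markers. Without it and TG Kupffer replicate 2, WT MoM replicate 2 was the only WT MoM library. The log2 fold change was then -3.06, and within WT it was -4.28 in place of -1.72 ± 1.05 (adjusted p = 0.321). Without WT MoM replicate 2 they were -1.23 and -0.85. DESeq2 called Arg2 over both genotypes (-1.73, adjusted p = 0.0452). On only the 4 libraries compared, a setting chosen after seeing the data, DESeq2 called it within TG (-1.69, adjusted p = 0.0204). Within WT that setting did not call it (-1.78, adjusted p = 0.152). Exons of Vti1b on the other strand overlap 285 exon bases of Arg2. Vti1b had 45.9 to 68.0 CPM in Kupffer libraries and 36.8 to 52.7 CPM in MoM.

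Arg1, the arginase of the urea cycle and a familiar marker of alternatively activated macrophages (chromosome 10, 24915221 to 24927484), stood at 1.26 and 8.10 CPM in WT Kupffer cells, 1.17 and 5.53 CPM in TG Kupffer cells, 12.7 and 6.47 CPM in WT MoM and 1.05 and 3.78 CPM in TG MoM. Groups overlapped in every comparison of 2 groups but that of TG with WT MoM. The libraries with the lowest Arg1, at 1.05 to 1.26 CPM, had hepatocyte marker sums of 15.5 to 66.5 CPM, and those at 3.78 to 12.7 CPM had sums of 195 to 890 CPM. The genes most like Arg1 over the 8 libraries were Pck1 (r = 0.978), Acaa1b (0.977) and Mat1a (0.970), all enzymes that hepatocytes make in quantity. No comparison called Arg1. In MoM both TG libraries lay below both WT libraries (log2 fold change -1.98 ± 1.16, adjusted p = 0.805), and the hepatocyte sums were 16.1 and 195 CPM in TG MoM against 627 and 644 CPM in WT MoM. The part of hepatocyte RNA in Arg1 was not tested.

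Nos2, the inducible nitric oxide synthase (chromosome 11, 78920787 to 78960254), was low throughout. It had 0.790 and 0.933 CPM in WT Kupffer cells and 2.46 and 9.36 CPM in TG Kupffer cells, and 1.88 and 0.579 CPM in WT MoM and 0.828 and 3.85 CPM in TG MoM. MoM and Kupffer cells overlapped (log2 fold change over both genotypes -0.41 ± 0.71, adjusted p = 0.712, turning to 0.13 without TG Kupffer replicate 2). Its nearest genes by likeness were Stam (0.973), Pigq (0.958) and Arfip1 (0.946), and those of Arg2 were Slc2a8 (0.962), Rab28 (0.960) and Fnip2 (0.960).

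Gch1, GTP cyclohydrolase (chromosome 14, 47153895 to 47189413), was the steadiest of the 9 genes. It had 42.8 and 24.1 CPM in WT Kupffer cells, 39.0 and 20.9 CPM in TG Kupffer cells, 37.4 and 37.7 CPM in WT MoM and 66.6 and 35.5 CPM in TG MoM. Groups overlapped in every comparison, and the log2 fold change over both genotypes was 0.47 ± 0.32 (adjusted p = 0.341). Its nearest genes were Tardbp (0.975), Trmt61b (0.974) and Ythdf2 (0.965). Of the 6 other tetrahydrobiopterin genes none was called by edgeR in the comparison of subsets over both genotypes or at an unadjusted p below 0.05, and DESeq2 called 0 of the 6. For Qdpr, which recycles the cofactor, the difference was -0.54 ± 0.24 on the log2 scale (adjusted p = 0.158), and the gene was called without TG Kupffer replicate 2 and WT MoM replicate 1.

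Of the 24 genes of the arginine, nitric oxide and polyamine list, all tested, 2 rose and 3 fell in MoM over both genotypes. This share was near that of all genes, 18.7% of which were called. Slc7a1, the general carrier of arginine, had 5.19 to 18.8 CPM in Kupffer libraries and 49.7 to 118 CPM in MoM (log2 fold change 3.08 ± 0.41, adjusted p = 0.0112). Slc7a2, the carrier known for feeding Nos2 and the arginases in activated mouse macrophages, fell by 2.09 ± 0.46 (adjusted p = 0.0300), from 21.4 to 45.4 CPM to 3.39 to 14.5 CPM. Ass1, which rebuilds arginine from citrulline, rose by 3.09 ± 0.73 (adjusted p = 0.0351), with 1.76 to 12.6 CPM in Kupffer libraries and 38.4 to 74.0 CPM in MoM. Nos1, the neuronal nitric oxide synthase, fell by 4.43 ± 0.95 (adjusted p = 0.0282), from 1.44 to 4.18 CPM to at most 0.247 CPM. Paox, a polyamine oxidase, fell by 2.35 ± 0.49 (adjusted p = 0.0260).

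Around the itaconate step, 3 of 21 genes fell in MoM over both genotypes and none rose, where 8.05% of all genes fell and 10.6% rose. Idh1, cytosolic isocitrate dehydrogenase, fell by 2.20 ± 0.43 (adjusted p = 0.0230), from 135 to 256 CPM to 21.4 to 76.7 CPM. Aco1, the cytosolic aconitase, fell by 1.59 ± 0.37 (adjusted p = 0.0337), and Slc25a10, the mitochondrial dicarboxylate carrier, by 1.02 ± 0.25 (adjusted p = 0.0369), although its subsets overlapped at 29.2 and 31.5 CPM. The median of the list was -0.43, against 0.09 for all tested genes. The 4 pathway lists had 21, 24, 6 and 17 genes tested. Of these together DESeq2 called 27 and edgeR 15 over both genotypes, where they called 30% and 18.7% of all genes. The number was 29 without TG Kupffer replicate 2 and WT MoM replicate 1. Leaving out single libraries, it was 30 without TG Kupffer replicate 2, 0 without either WT Kupffer library, 3 and 4 without TG MoM replicates 1 and 2, and 6 without WT MoM replicate 2.

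Acod1, the enzyme that makes itaconate (chromosome 14, 103046977 to 103056573), was the most abundant of these transcripts per kilobase of exon in 3 of the 4 groups. It had 22.7 and 25.5 CPM in WT Kupffer cells and 141 and 190 CPM in TG Kupffer cells, so that both TG libraries stood well above both WT libraries. In MoM it had 37.0 and 202 CPM in WT and 148 and 436 CPM in TG, and these groups overlapped. The log2 fold change of TG against WT was 2.78 ± 0.86 in Kupffer cells, 6.85-fold, but with an adjusted p of 0.730 in edgeR's fit of all libraries. It was 1.29 ± 0.82 in MoM (adjusted p = 0.820).

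The size of the Acod1 difference in Kupffer cells was stable, and its call was not. The log2 fold change was 2.59 to 2.95 whichever library was left out and 2.59 without TG Kupffer replicate 2 and WT MoM replicate 1. The adjusted p was 0.834 in edgeR on the 4 Kupffer libraries alone, 0.0360 with DESeq2 on all libraries and 1.38e-17 with DESeq2 on the 4 Kupffer libraries. The authors' deposited table for TG against WT, which lists 179 genes, gives Acod1 a log2 fold change of 2.79 and an adjusted p of 1.23e-16, the second smallest p in it. That table names no cell type, but its mean normalized counts match those of the 4 Kupffer libraries within 1% for 179 of 179 genes and of the MoM libraries for 0. Acod1 is the single member of the 9 in it.

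Kynu and Nos2 had the same order in Kupffer cells. Kynu, at 1.12 to 1.22 CPM in WT and 2.68 to 4.09 CPM in TG, had a log2 fold change of 1.53 ± 0.32 (edgeR adjusted p = 0.730, DESeq2 0.0296). With DESeq2 on the 4 Kupffer libraries the adjusted p was 0.365. Nos2 had 2.77 ± 1.06 (edgeR adjusted p = 0.730, DESeq2 0.160), which was 1.56 without TG Kupffer replicate 2, the library with 9.36 CPM. Both TG Kupffer libraries lay above both WT Kupffer libraries for Acod1, Nos2, Kynu and Ido1, which is 4 of 9, where 16.7% of all tested genes had that order. The order of Ido1 rests on 8 and 4 counts in TG against 1 and 0 in WT, near the floor of 3 counts. None of the 9 lay below, where 17.7% did. No member was called by edgeR (0% of all genes), 3 of 9 had an unadjusted p below 0.05 (906 of all 15254 genes did), and DESeq2 called 2, against 1.71% of all genes.

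The remaining members had small or uneven differences between TG and WT Kupffer cells. Log2 fold changes were -0.16 ± 0.46 for Gch1, -0.34 ± 0.32 for Il4i1, -0.41 ± 0.63 for Kmo, -0.48 ± 1.12 for Arg1 and -0.65 ± 1.02 for Arg2, with overlapping groups. Markers of several other cells were higher in TG Kupffer cells, but not every list was. The sum of 7 B cell markers was 107 and 99.1 CPM in TG against 134 and 130 CPM in WT, although 5 of the 7 had a log2 fold change above 0. Of 9 Kupffer cell markers 7 were lower in TG, and of 12 hepatocyte markers 7 were higher and 5 lower. The sum of 10 monocyte markers was 461 and 317 CPM in TG against 205 and 158 CPM in WT, that of 10 neutrophil markers was 35.5 and 15.3 CPM against 2.15 and 2.35 CPM, and Camp, Ly6g and Elane were at 0 in both WT libraries. The sum of 8 T and NK cell markers was 16.3 and 236 CPM in TG against 7.54 and 12.8 CPM in WT. The sum of 9 dendritic cell markers was 93.6 and 303 CPM in TG against 90.1 and 63.1 CPM in WT, with 8 of the 9 higher and 5 at an unadjusted p below 0.05. That of 6 mast cell and basophil markers was 6.65 and 127 CPM against 1.65 and 3.51 CPM, and that of 6 cholangiocyte markers 1.32 and 5.60 CPM against 0.611 and 0.448 CPM, with all of these markers higher in TG. TG Kupffer replicate 1, with 141 CPM of Acod1, had an endothelial sum of 1651 CPM, below both WT Kupffer libraries. It also had the highest monocyte and neutrophil sums of the Kupffer libraries, 461 and 35.5 CPM. The part of these cells in Acod1, Kynu and Nos2 was not tested.

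**Figure D4:**
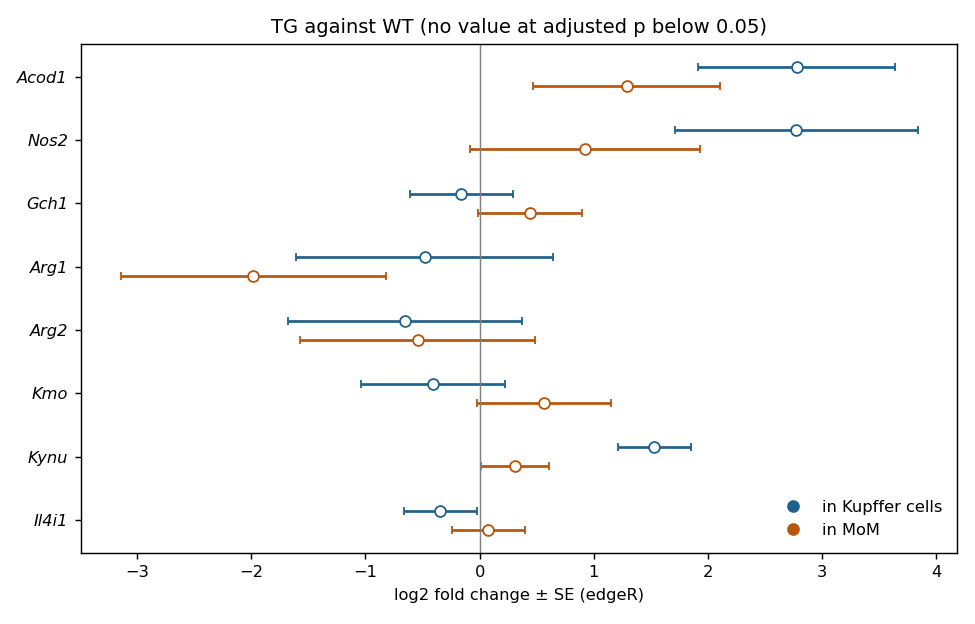
Log2 fold change ± SE of TG against WT (horizontal axis) for 8 genes (vertical axis), in Kupffer cells and in MoM, from edgeR's fit of 8 libraries, with open points for an adjusted p of 0.05 or more. In Kupffer cells Acod1 and Nos2 lie at 2.78 and 2.77 and Kynu at 1.53, and in MoM the errors of most genes reach 0.

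In MoM no member was called between TG and WT by edgeR (0% of all genes) or DESeq2 (0.926%). None had an unadjusted p below 0.05, where 987 of all 15254 genes did. For Kmo (log2 fold change 0.56 ± 0.59) and Kynu (0.31 ± 0.30), 2 of 9, the TG libraries were both higher than the WT libraries, where 19.2% of all genes had that order. They were lower for Arg1, where 20% of all genes had that order. The order of Ido1 was the same, at 4 and 9 counts in TG MoM against 11 and 10 in WT MoM. Ido1 passed the filter through the WT MoM libraries. Nos2 had 0.92 ± 1.01, Gch1 0.44 ± 0.46, Il4i1 0.07 ± 0.32 and Arg2 -0.54 ± 1.03. In WT MoM replicate 1, the library with 8923 CPM of Kupffer markers, Kmo and Kynu had 53.5 and 19.8 CPM. In WT MoM replicate 2 they had 91.9 and 27.8 CPM. TG MoM had 94.6 and 120 CPM of Kmo and 30.1 and 29.0 CPM of Kynu. With single libraries left out, Kmo ranged from 0.23 to 1.00 and Kynu from 0.09 to 0.58. Of 9 Kupffer cell markers 9 were lower in TG MoM, and of 10 monocyte markers 10 were higher. The part of these cells in Kmo and Kynu was not tested. Acod1 was highest of all libraries in TG MoM replicate 2, at 436 CPM, where the neutrophil marker sum was 3701 CPM. In WT MoM replicate 2 it had 202 CPM with a neutrophil sum of 552 CPM, and in WT MoM replicate 1 it had 37.0 CPM with 57.9 CPM. TG MoM replicate 1 had 148 CPM of Acod1 with a neutrophil sum of 117 CPM. Neutrophils also make Acod1, and their part in these values was not tested.

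The difference between the TG effects in MoM and in Kupffer cells was tested as an interaction. It was -1.49 ± 1.15 for Acod1 (adjusted p = 0.691), -1.85 ± 1.43 for Nos2 (0.692) and -1.22 ± 0.43 for Kynu (unadjusted p = 0.0289, adjusted 0.626). None of the 9 genes was called by edgeR (0% of all genes) or DESeq2 (0.348%). Of the 9, 1, Kynu, had an unadjusted p below 0.05, as did 980 of all 15254 genes. Acod1's value turned to 0.21 without WT MoM replicate 2, and that of Nos2 to 0.41 without TG Kupffer replicate 2 and WT MoM replicate 1. Averaged over both cell types, TG against WT gave Acod1 2.03 ± 0.59 (edgeR adjusted p = 0.685, DESeq2 0.0288), Nos2 1.85 ± 0.73 (0.756, DESeq2 0.263) and Kynu 0.92 ± 0.22 (0.577, DESeq2 0.0691). Of the 9 genes 3 had an unadjusted p below 0.05 there, as did 977 of all 15254 genes. There edgeR called 0 of the 9 (0% of all genes), while DESeq2 called 1 (1.68%). No member kept the 4 TG libraries apart from the 4 WT libraries, which 0.806% of all genes did upward and 0.544% downward. The genes most like Acod1 over the 8 libraries were Apobec3 (r = 0.977), Il2rg (0.972) and Kars (0.959).

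EdgeR called no gene of the pathway lists between the genotypes in either cell type. At an unadjusted p below 0.05 stood 2 of them in Kupffer cells and 1 in MoM, against 906 and 987 of all 15254 genes. Wars, the interferon-inducible tryptophanyl-tRNA synthetase, had the smallest p in Kupffer cells, with 67.4 and 82.7 CPM in WT and 151 and 244 CPM in TG (log2 fold change 1.40 ± 0.33, unadjusted p = 0.00465, adjusted 0.730). Both TG libraries stood above both WT libraries. Sdhc, a subunit of the succinate dehydrogenase that itaconate inhibits, came next (0.62 ± 0.25, unadjusted p = 0.0475, adjusted 0.730). In MoM the smallest p was that of the transporter Slc7a8, with both TG libraries below both WT libraries (-1.17 ± 0.47, unadjusted p = 0.0459, adjusted 0.757). It had 158 CPM in WT MoM replicate 1, the library with 8923 CPM of Kupffer markers, and 67.4 CPM in WT MoM replicate 2. TG MoM had 52.5 and 47.8 CPM, and Kupffer libraries had 251 to 628 CPM. The part of Kupffer cell RNA in this difference was not tested.

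Acod1 was also compared between subsets. MoM had more of it in WT (log2 fold change 2.31 ± 0.85), with both MoM libraries above both Kupffer libraries, but edgeR did not call it (adjusted p = 0.165) and DESeq2 did (0.0282). Without TG Kupffer replicate 2 and WT MoM replicate 1, with WT MoM replicate 2 the only WT MoM library, the log2 fold change was 3.03. Without WT MoM replicate 2 it was 0.62. In TG the subsets overlapped (0.82 ± 0.81, adjusted p = 0.566).

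Levels per kilobase of exon allow the genes to be ranked within a group. In WT Kupffer cells Arg2 led with 18.3 ± 9.12 CPM per kilobase (SD, n = 2), followed by Acod1 with 9.18 ± 0.765, Gch1 with 5.35 ± 2.11 and Il4i1 with 4.28 ± 0.270. Gch1 and Il4i1 did not differ beyond their spread. In TG Kupffer cells Acod1 led with 62.9 ± 13.2, above Arg2 with 11.6 ± 1.17. In WT MoM Acod1 had 45.6 ± 44.6, Kmo 15.4 ± 5.75 and Il4i1 13.4 ± 4.29, and their ranges overlapped. In TG MoM Acod1 had 111 ± 77.6, Kmo 22.7 ± 3.80, Il4i1 14.1 ± 2.04, Gch1 8.17 ± 3.52 and Kynu 4.81 ± 0.122. Ido1 was lowest in all 4 groups, at most 0.186 CPM per kilobase in any library, and Nos2 had at most 2.12.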

How the data were processed

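STAR 2.5.2b and the build mm10 are named in the submitters' processing notes, which as used here name no counter, annotation or strand setting. The deposited values are whole-number counts per gene symbol, 1 table per library. Below 20 counts, 65.0% to 68.0% of values above 0 were even, so counts may not be independent molecules. Per the file headers, the authors' table of TG against WT holds DESeq2 columns: the log2 fold change and its error, a test statistic (score), the p-value and adjusted p-value, and the mean of normalized counts.

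Counts were tested with edgeR 4.0.16 in R 4.3.3 (filterByExpr, TMM, quasi-likelihood F-test, 4 groups of 2 libraries, Benjamini-Hochberg over 15254 genes). The procedure was run on simulated counts with known changes between TG and WT MoM, 50 genes at each size. It called 1 of 50 at 2-fold, 8 at 4-fold, 32 at 8-fold and 37 at 16-fold, with 4 false calls. A gene that was not called may therefore still differ. The SE is the log2 fold change over the root of F. The alternatives were DESeq2 1.42.0, all genes kept whatever their counts, median-of-ratios scaling, a replicate block and left-out libraries. All 9 members passed the filter, Ido1 through WT MoM. Likeness used genes at 5 CPM or more and the 3 highest r, for members with at least 1 CPM. Of each pathway list, called genes are named, otherwise those with the smallest p. Positions are from GENCODE M21 (GRCm38, the same assembly as mm10). The members and lists were chosen with earlier results of these data known. Values of 1 pathway gene are not reported here.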

Additional observations from a re-analysis of the deposited data

How the results depend on the processing

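With 2 libraries a group, calls depended more on the tool and on single libraries than directions did. Of 662 values of members under alternatives, 578 kept direction and side of the threshold, 33 lost a call, 22 gained one and 29 turned sign. Size factors and no filter changed no call of a member. The causes of the changes were not tested.

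DESeq2 called 2 members between TG and WT Kupffer cells, 4 between WT subsets, 5 between subsets over both genotypes and 1 between genotypes over both subsets. Over all genes it called 236 in Kupffer cells, 133 in MoM, 2942 between WT subsets, 2658 between TG subsets, 51 in the interaction, 4576 between subsets and 236 between genotypes over both, and 27 pathway genes, against 0, 0, 178, 381, 0, 2845, 0 and 15 with edgeR. Only the 4 libraries compared gave edgeR 1585 genes between WT subsets, and 0 genes and 0 members between TG subsets. DESeq2 on those libraries, chosen after seeing the data, called 175 genes and 1 member in Kupffer cells and 205 genes in MoM. It called 3900 genes and 4 members between WT subsets. Between TG subsets it called 3649 genes, with Arg2, Kmo, Kynu and Il4i1 among them. The alternatives for pathway genes were also chosen after seeing the data.

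Without TG Kupffer replicate 2 and WT MoM replicate 1, edgeR called 5 members and 2677 genes between WT subsets, 2130 genes between TG subsets, and 5 members, 4972 genes and 29 pathway genes over both genotypes. TG Kupffer cells and WT MoM then had 1 library each, with the spread taken from the other groups. These log2 fold changes turned sign: Gch1 in Kupffer cells to 0.26, Arg2 and Il4i1 in MoM to 1.94 and -0.24, Nos2 between WT subsets to -0.61, Arg1 between TG subsets to 0.92 and the interaction of Nos2 to 0.41. None of these was called.

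Leaving out each library in turn, genes called ranged from 0 to 257 in Kupffer cells, 0 to 1434 between WT subsets, 0 to 1026 between TG subsets, 0 to 83 in the interaction and 84 to 4458 between subsets over both genotypes. Members called ranged from 0 to 3 in WT, 0 to 3 in TG and 1 to 5 over both, and pathway genes from 0 to 30. Log2 fold changes that turned sign ranged, in Kupffer cells, from -1.93 to 1.37 for Arg1, -1.72 to 0.25 for Kmo, -0.71 to 0.36 for Gch1 and -1.10 to 0.00997 for Arg2. In MoM they ranged from -0.0725 to 0.83 for Gch1, -1.51 to 1.98 for Arg2, -0.57 to 2.02 for Nos2 and -0.21 to 0.44 for Il4i1. Between WT subsets Gch1 ranged from -0.26 to 0.62 and Nos2 from -0.58 to 1.12, and between TG subsets Arg1 from -1.66 to 0.92 and Acod1 from -0.15 to 1.41. Over both genotypes Arg1 ranged from -0.32 to 1.16 and Nos2 from -1.16 to 0.13, and the interaction of Acod1 from -2.46 to 0.21.

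The labels do not tie a replicate number to an animal, litter or day. For that reason the numbers were not taken as pairs in the main fit. Deviations of replicate 1 correlated at 0.125 to 0.590 in 5 of 6 pairs of groups and at -0.0725 between WT Kupffer cells and WT MoM. The highest value, 0.590, was that of TG Kupffer cells and TG MoM. These values do not settle whether libraries were paired. With the replicate number as a block, edgeR called 234 genes between WT subsets, 301 between TG subsets and 3171 over both, and 2, 2 and 3 members. Il4i1 in TG lost its call.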
